A study of Mus musculus with 8 samples.

Results

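Hedgehog signalling and its Gli transcription factors were followed in cultured mouse dermal fibroblasts through 6 genes chosen by name, *Gli1*, *Gli2*, *Gli3*, *Ptch1*, *Smo* and *Sufu*. Of these 6 genes, 5 had values among the 15111 genes of the table, and *Gli1* was not analysed here. The genes were compared between control and TGFβ1FKO fibroblasts, the question being whether their transcript levels differ when fibroblasts carry less *Tgfb1* transcript of their own.

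Control fibroblasts (4 libraries) came from Tgfb1fl/fl mice without Cre recombinase, and TGFβ1FKO fibroblasts (4 libraries) from Tgfb1fl/fl:Col1a2-CreERT mice. Mice of both groups therefore carried the floxed alleles, were fed tamoxifen and were killed when 10 weeks old. Back skin cells were cultured and then kept for 72 h in serum replacement medium on fibronectin before polyadenylated RNA was sequenced. The Cre recombinase is driven by a *Col1a2* promoter and so acts in collagen-producing mesenchymal cells, and the skin was digested with its epidermis. The labels do not say whether the 4 libraries of a group came from separate mice or cultures, so p-values measure the spread between these libraries, which may be technical. Reads on the listed genes numbered 16988998 to 21806579 in control libraries and 17445002 to 23071528 in TGFβ1FKO libraries.

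A hedgehog ligand binds the receptor Ptch1 and so releases the membrane protein Smo, which moves into the primary cilium, the single antenna of most fibroblasts. Smo then frees the Gli proteins from their binding partner Sufu, with Gli2 acting mainly as activator, Gli3 mainly as repressor, and *Gli1* and *Ptch1* being switched on as targets. In skin, hair follicle keratinocytes make Sonic hedgehog and Schwann cells make Desert hedgehog, and dermal fibroblasts are a receiving cell type.

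The gene targeted for deletion was measured first, as a check of the labels. Normalised counts (reads divided by a library size factor) of *Tgfb1* were 1401, 1298, 1483 and 1314 in control replicates 1 to 4 and 326, 259.9, 228 and 295 in TGFβ1FKO replicates 1 to 4. Every TGFβ1FKO library lay below every control library, so that no library went against its label. The log2 fold change was -2.31 (SE 0.10, limma, adjusted p = 1.53e-07), and reads on *Tgfb1* remained in each TGFβ1FKO library, with at least 251 per library. The cells carried fibroblast markers, with 9 of 9 measured and a median log2 fold change of 0.02. None of the 9 was called by limma, edgeR or DESeq2, beside 13, 20 and 56 of all genes. At an unadjusted limma p under 0.05, 0 of the 9 passed, beside 7.46% of all genes. The most abundant of them was *Col1a1*, at a mean normalised count of 653489 in control and 664781 in TGFβ1FKO libraries.

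Among the hedgehog genes, *Gli2* stood apart from the others. It was higher in all 4 TGFβ1FKO libraries than in any control library, by 1.58-fold on average, whereas *Gli3*, *Smo*, *Sufu* and *Ptch1* had overlapping groups. Calls required a Benjamini-Hochberg adjusted p (over all genes) under 0.05 with a log2 fold change beyond 0.6 in either direction. By limma, 13 of 15111 genes were called (0.086%), and 0 of the 5 hedgehog genes was among them. At an unadjusted p under 0.05, 1 of the 5 (*Gli2*) passed, beside 1127 of all genes (7.46%). By other tools on reads recovered from the table, edgeR called 0 of the 5 and DESeq2 called 1, again *Gli2*, beside 56 of all genes (0.371%).

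**Figure D1:**
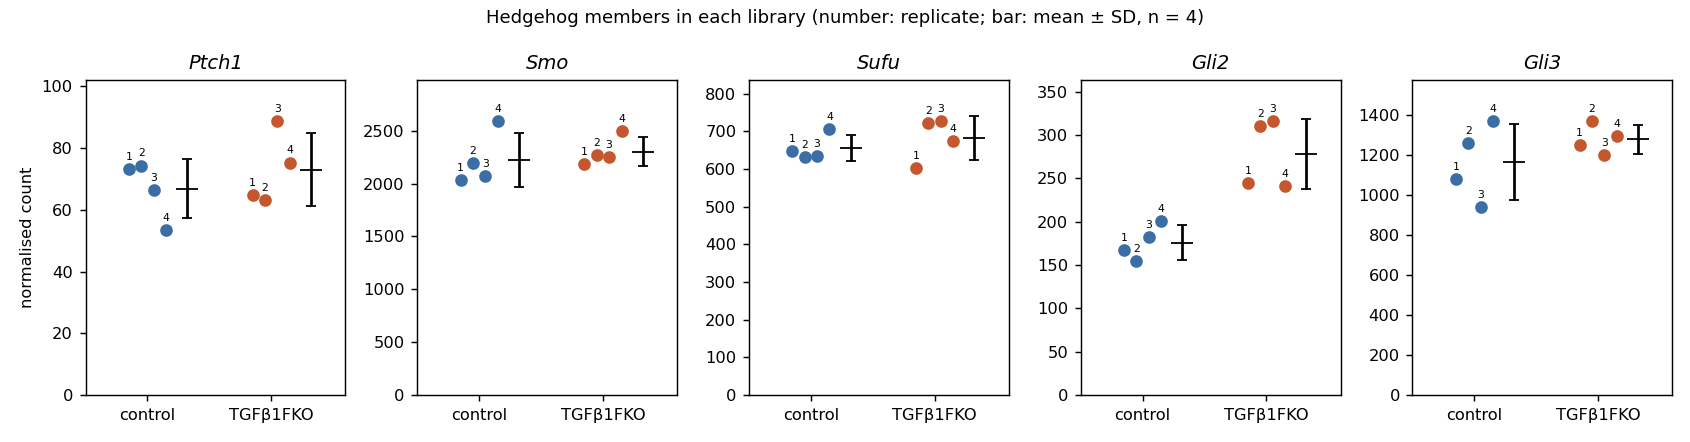
Normalised counts of the 5 hedgehog genes in each library, by group, with the replicate number above each point and the mean ± SD (n = 4) beside the points. For *Gli2* the control libraries lie between 154 and 200.5 and the TGFβ1FKO libraries between 242 and 316, while the groups of the other 4 genes overlap.

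*Gli2* (ENSMUSG00000048402) encodes the zinc finger transcription factor that carries most of the activating output of the pathway. It lies on the minus strand of chromosome 1 (GRCm38 chr1:118834132-119053619). Its normalised counts were 167, 154, 182 and 200.5 in control replicates 1 to 4 and 244, 311, 316 and 242 in TGFβ1FKO replicates 1 to 4. The groups did not overlap, with TGFβ1FKO replicates 2 and 3 above replicates 1 and 4, and control replicate 4 the highest control. The means were 176 ± 20.0 in control and 278 ± 40.9 in TGFβ1FKO libraries (SD, n = 4 each). Each value rested on 145 to 381 reads.

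The log2 fold change of *Gli2* was 0.65 (SE 0.12, 95% interval 0.39 to 0.92), with an adjusted p of 0.0942 in limma, which missed the threshold of 0.05. Ordered by p, *Gli2* ranked 25 of 15111 genes. Over the whole table, 573 genes (3.79%) had groups without overlap, and 255 (1.69%) were higher in every TGFβ1FKO library, *Gli2* among them. DESeq2's test against no change gave an adjusted p of 0.00084 for *Gli2* at a log2 fold change of 0.66, and called it. The same tool's test against a change of 0.6 gave an adjusted p of 1. Without control replicate 4, limma called *Gli2*, at a log2 fold change of 0.72 and an adjusted p of 0.0489. Over the 17 alternatives tried, the log2 fold change of *Gli2* was above 0 in 17 and ran from 0.59 to 0.72, and the adjusted p ran from 0.00084 to 1. All alternatives draw on the same libraries, and with separate groups leaving out a library could not turn the sign.

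**Figure D2:**
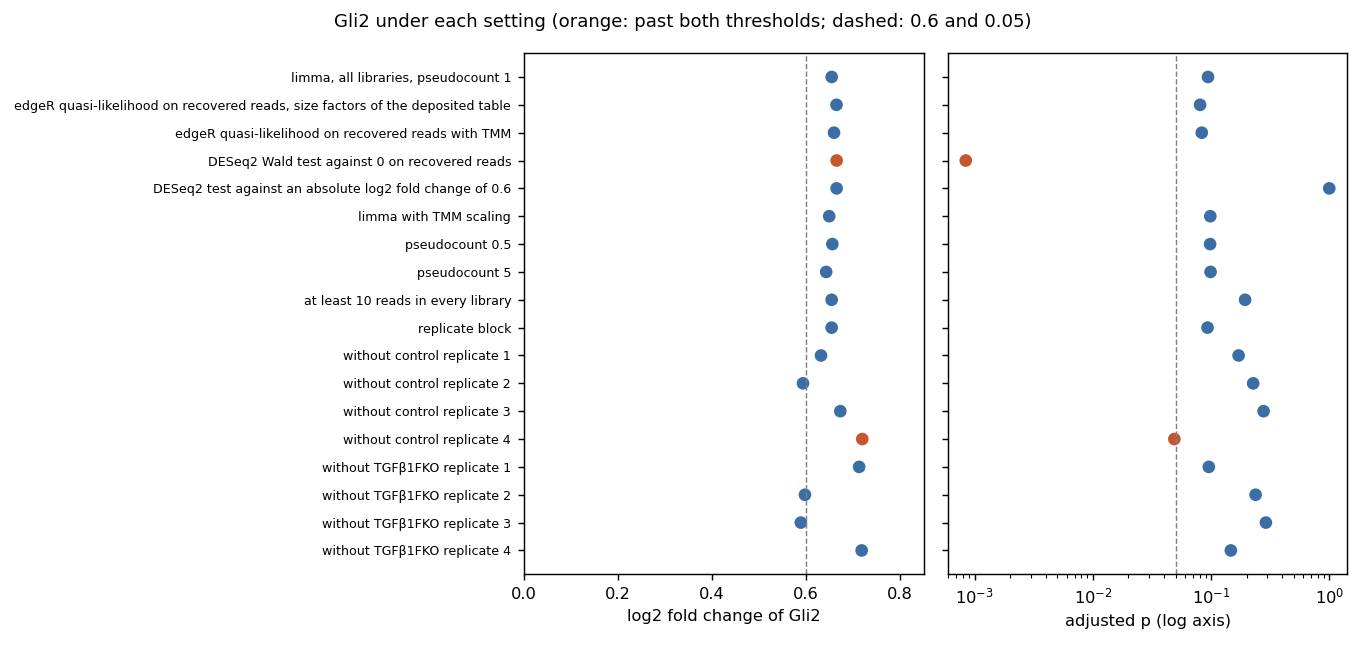
Log2 fold change (left) and adjusted p on a log axis (right) of *Gli2* in the limma fit and under 17 alternatives, with dashed lines at 0.6 and 0.05 and orange points past both. Fold changes stay between 0.59 and 0.72, while 2 of the 17 alternatives pass both thresholds.

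*Gli3* (ENSMUSG00000021318, GRCm38 chr13:15463235-15730026, plus strand) encodes the Gli factor that mainly represses when no ligand is bound. Its normalised counts were 1079, 1261, 941 and 1369.8 in control replicates 1 to 4 and 1251, 1370.1, 1197 and 1293 in TGFβ1FKO replicates 1 to 4. The control range took in 3 of the 4 TGFβ1FKO libraries, and replicate 2 lay at its upper edge. On the log2 scale the difference was 0.15 (95% interval -0.07 to 0.36, adjusted p = 0.756, limma). Of its exon bases, 1.96% are shared with *Gm6556* on the opposite strand, and reads of these non-directional libraries cannot be assigned to a strand there. The ratio of *Gli3* to *Gli2* normalised counts was 6.67 ± 1.24 in control and 4.67 ± 0.712 in TGFβ1FKO libraries (SD, n = 4 each), with the lowest control at 5.18 and the highest TGFβ1FKO library at 5.35. The ratios of the groups thus overlapped.

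Promoters of the Gli genes are shown because *Gli2* and *Gli3*, which encode related factors, differed in how far their groups were apart. *Ptch1* is added as a target of both. The sequences are RefSeq promoters (GRCm38.p6) of 250 bases before to 50 after the start, found for 5 of the 6 genes and written 5′ to 3′ on the gene's strand. They are chr1:119053570-119053869 (minus strand) for *Gli2*, chr13:15463473-15463772 (plus strand) for *Gli3* and chr13:63565686-63565985 (minus strand) for *Ptch1*. For *Gli3* and *Ptch1*, the RefSeq start lies inside the gene's span in GENCODE M21, downstream of its outermost start. Capitals mark CAGAC, a short Smad-binding motif, here found as its reverse complement GTCTG.
Gli2: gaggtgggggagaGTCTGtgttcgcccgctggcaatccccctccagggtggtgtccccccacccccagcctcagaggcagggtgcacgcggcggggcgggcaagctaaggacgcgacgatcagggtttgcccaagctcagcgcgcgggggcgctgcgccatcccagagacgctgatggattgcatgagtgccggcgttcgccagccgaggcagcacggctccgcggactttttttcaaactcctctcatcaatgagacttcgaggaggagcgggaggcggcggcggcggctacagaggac
Gli3: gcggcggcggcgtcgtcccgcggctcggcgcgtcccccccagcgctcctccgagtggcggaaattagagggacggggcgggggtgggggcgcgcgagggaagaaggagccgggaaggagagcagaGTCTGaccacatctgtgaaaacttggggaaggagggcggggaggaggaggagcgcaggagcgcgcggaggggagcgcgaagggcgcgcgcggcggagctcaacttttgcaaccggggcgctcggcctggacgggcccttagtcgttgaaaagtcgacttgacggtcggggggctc
Ptch1: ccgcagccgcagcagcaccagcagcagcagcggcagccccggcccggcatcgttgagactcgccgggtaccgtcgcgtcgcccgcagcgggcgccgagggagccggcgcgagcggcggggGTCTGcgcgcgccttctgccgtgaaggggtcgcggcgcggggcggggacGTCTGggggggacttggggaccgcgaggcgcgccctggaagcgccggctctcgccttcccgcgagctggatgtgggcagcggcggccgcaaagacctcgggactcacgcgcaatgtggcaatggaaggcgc

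The motif CAGAC, searched on both strands, matched once in the *Gli2*, *Gli3* and *Smo* promoters, 2 times in that of *Ptch1* and 0 times in that of *Sufu*, and 49.6% of all 32851 promoters hold it. The Gli-binding motif GACCACCCA matched none of the 5 promoters and 0.253% of all. The palindromic Smad-binding motif GTCTAGAC likewise matched none of the 5 and 0.213% of all. The *Gli2* promoter had 28 CpG dinucleotides, that of *Gli3* 39 and that of *Ptch1* 47, beside a median of 7 over all promoters.

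*Ptch1* (ENSMUSG00000021466, GRCm38 chr13:63508328-63573598, minus strand) encodes the ligand receptor and is itself a target of Gli factors. Its normalised counts were 73.1, 74.4, 66.5 and 53.3 in control replicates 1 to 4 and 64.9, 63.2, 88.8 and 75.3 in TGFβ1FKO replicates 1 to 4. The groups overlapped, with TGFβ1FKO replicate 3 the highest library and control replicate 4 the lowest. Its log2 fold change of 0.13 had a 95% interval from -0.25 to 0.50 (adjusted p = 0.902, limma). With 54 to 107 reads per library it was the thinnest of the 5 genes. The log2 fold change of *Gli2* (0.65) lies outside the *Ptch1* interval, but the 95% interval of *Gli2* (0.39 to 0.92) overlaps it. Whether *Ptch1* changed less than *Gli2* was not tested.

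*Smo* (ENSMUSG00000001761, GRCm38 chr6:29735503-29761365, plus strand) encodes the membrane protein that Ptch1 holds inactive. Its normalised counts were 2036, 2197, 2074 and 2594 in control replicates 1 to 4 and 2187, 2274, 2254 and 2496 in TGFβ1FKO replicates 1 to 4. All TGFβ1FKO libraries lay inside the range of the controls, and the log2 fold change was 0.05 (95% interval -0.11 to 0.22, adjusted p = 0.904, limma).

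*Sufu* (ENSMUSG00000025231, GRCm38 chr19:46396896-46488804, plus strand) encodes the protein that binds and restrains Gli factors. Its normalised counts were 649, 633, 634 and 706 in control replicates 1 to 4 and 603, 723, 728 and 674 in TGFβ1FKO replicates 1 to 4. The TGFβ1FKO group held both the lowest and the highest library, and the log2 fold change was 0.05 (95% interval -0.11 to 0.22, adjusted p = 0.903, limma). The median log2 fold change of the 5 genes was 0.13, beside 0.00 over all genes, and 5 of 5 were above 0, beside 7699 of 15111.

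Levels of different genes were set side by side per kilobase of merged exons (GENCODE M21). On this scale *Smo* was the highest at a mean of 403 normalised counts per kb, followed by *Gli3* at 127, *Sufu* at 87.0, *Gli2* at 33.0 and *Ptch1* at 4.93. Each gene lay above the next in this order in all 8 libraries. *Gli2* kept its place in both groups, at 25.6 ± 2.91 normalised counts per kb in control and 40.5 ± 5.95 in TGFβ1FKO libraries (SD, n = 4 each). Merged exons join all annotated isoforms, so a gene with many isoforms, such as *Ptch1*, is divided by more bases than any single transcript has.

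No pair of members passed a test of correlation across libraries. The groups of *Gli2* were separate, so its pairs with other members are not reported, which leaves 6 of the 10 pairs computed. Of these 6, *Gli3* and *Smo* had the highest Pearson's r, 0.75 over 8 libraries (exact permutation p = 0.0341, two-sided, 0.341 adjusted over 10 pairs). Spearman's rho was 0.83 (exact permutation p = 0.0154, 0.154 adjusted). Without control replicates 1 and 3, the libraries farthest from the median of *Gli3*, r was 0.57. After adjustment 0 of 10 pairs passed by either measure, and 1 of 10 had an unadjusted p under 0.05 for r.

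Likeness to other genes was measured by Pearson's r over the 8 libraries, among genes whose normalised counts averaged 50 or more. The genes most like *Gli2* were *Pitpnm2* (r = 0.97), *Cep170b* (r = 0.95) and *Etfdh* (r = 0.95). Since the groups of *Gli2* were separate, these values of r carry the difference between the groups, as a description without a test. Among 11560 genes ranked by likeness, *Smo* was at place 966 for *Gli3*, and *Gli3* at place 456 for *Smo*. Nearest to *Gli3* were *Tlr4*, *Fat4* and *Garem1* (r = 0.98, 0.97 and 0.97). Nearest to *Ptch1* were *Wdr75*, *Phactr4* and *Ipo5* (r = 0.98, 0.97 and 0.96). Nearest to *Smo* were *Bicral*, *Clip3* and *Marf1* (r = 0.98, 0.93 and 0.93). Nearest to *Sufu* were *Ttbk2*, *Cap2* and *Aplp1* (r = 0.97, 0.95 and 0.95). For each member the nearest genes are the highest of 11560 values of r over only 8 libraries, so values this high were found for every member. The likeness of these nearest genes was not tested.

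Around the 6 genes, the wider hedgehog pathway showed no called gene. Of 47 genes listed as ligands and their release, reception, transduction or targets, 42 were measured. Limma, edgeR and DESeq2 each called 0 of them, beside 13 (0.086%), 20 and 56 (0.371%) of all genes. At an unadjusted limma p under 0.05, 3 of 42 passed (7.14%), beside 7.46% of all genes, and 0 of 42 had groups without overlap, beside 3.79% of all genes. The median log2 fold change of the 42 was 0.01.

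Of the ligands, *Shh*, *Ihh* and *Dhh* were not analysed here, nor was *Scube1*. The acyltransferase gene *Hhat* and the ligand release gene *Disp1* averaged 462 and 1131 normalised counts. *Scube2* and *Scube3*, which encode secreted proteins that help release ligand, were near the bottom of the table at 12.5 and 18.8. None of these 4 genes passed an unadjusted p of 0.05, and the intervals of the sparse genes were wide, as for *Scube3* from -1.38 to 0.25.

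Of the reception genes, 9 of 10 were measured and *Hhip* was not analysed here. The co-receptor genes were plentiful, *Gas1* at a mean normalised count of 2718, *Cdon* at 1786 and *Boc* at 668. *Evc2* and *Evc*, whose products hold Smo at the base of the cilium, were at 1318 and 782. No gene of this list was called by limma (beside 0.086% of all genes) or had separate groups (beside 3.79% of all genes). Their median log2 fold change was 0.09, with *Gas1* at -0.14 and *Boc* at 0.16.

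All 17 transduction genes were measured, and their log2 fold changes ran from -0.21 (*Arrb2*) to 0.24 (*Stk36*), with a median of 0.02. The most abundant was *Prkar1a*, a regulatory subunit of protein kinase A, which acts against Gli activation, at 7774 normalised counts in control and 7785 in TGFβ1FKO libraries. *Kif7*, which encodes the kinesin that organises the tip of the cilium, was at 185.4 in control and 185.3 in TGFβ1FKO libraries. The median SE over these 17 genes was 0.06, beside 0.10 over all genes.

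Of the target genes of Gli factors other than *Gli1* and *Ptch1*, 13 of 14 were measured. *Ccnd1*, *Ccnd2* and *Sfrp1* had an unadjusted p under 0.05 (3 of 13, 23.1%, beside 7.46% of all genes), and none of the 3 passed after adjustment. The median log2 fold change of the list was -0.06, with 5 genes above 0 and 8 below. *Ccnd1*, a cyclin gene of the G1 phase, had normalised counts of 4797, 4881, 5676 and 6184 in control and 5577, 9261, 6987 and 7102 in TGFβ1FKO replicates 1 to 4. Of the TGFβ1FKO libraries, only replicate 1 lay within the control range. The log2 fold change of *Ccnd1* was 0.41 (SE 0.13, adjusted p = 0.51, limma).

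*Ccnd2*, the related cyclin gene and the most abundant of the list, had normalised counts of 11253, 11701, 10607 and 12712 in control and 11517, 15452, 14311 and 13838 in TGFβ1FKO replicates 1 to 4. Again only TGFβ1FKO replicate 1 overlapped with the controls, and the log2 fold change was 0.25 (SE 0.09, adjusted p = 0.562, limma). *Sfrp1*, which encodes a secreted Wnt antagonist, was at 2454, 3352, 2416 and 2779 in control and 2686, 1311, 2535 and 1887 in TGFβ1FKO replicates 1 to 4. The lower values came from TGFβ1FKO replicates 2 and 4, and the log2 fold change was -0.43 (SE 0.19, adjusted p = 0.654, limma), or -0.22 without TGFβ1FKO replicate 2. These cyclin and Wnt antagonist genes also answer to pathways other than hedgehog.

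**Figure D3:**
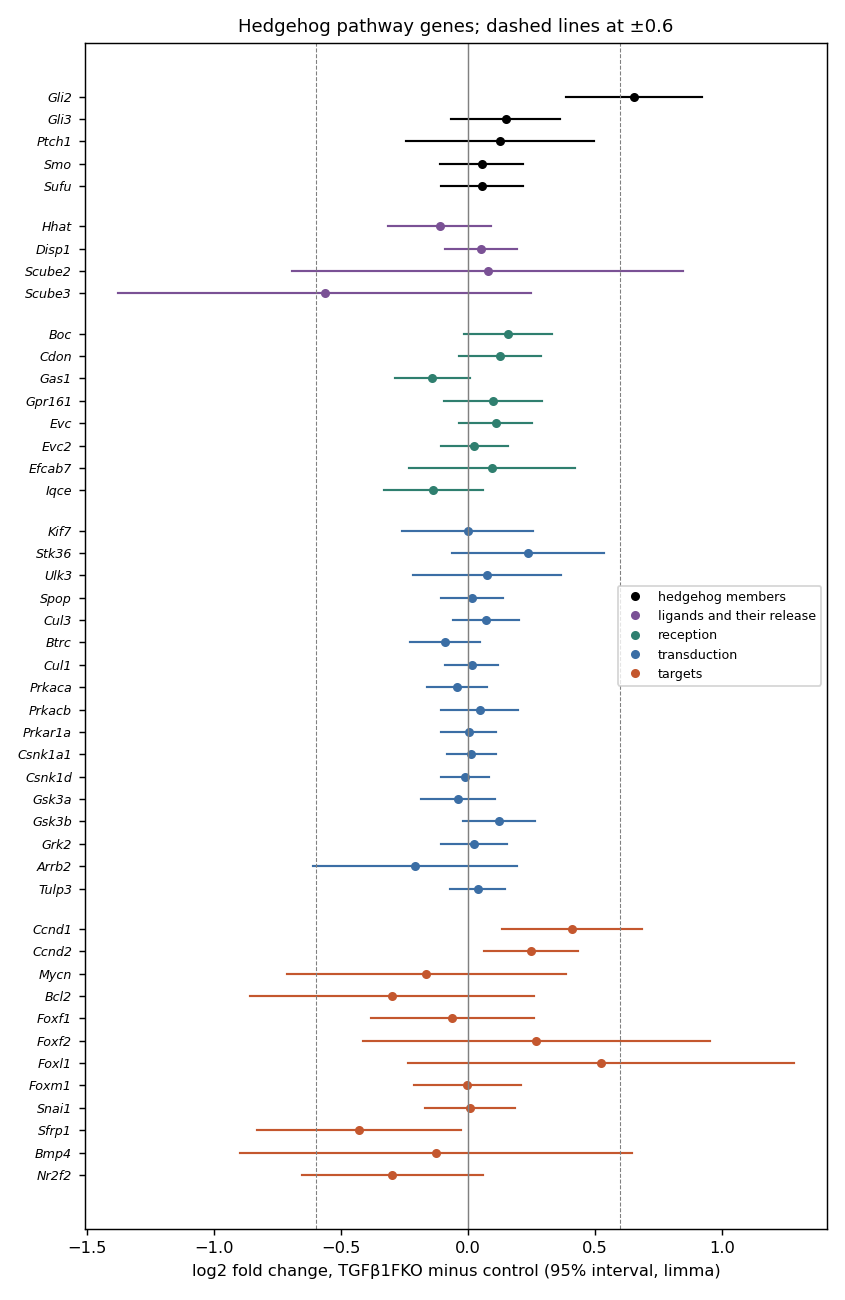
Log2 fold change (TGFβ1FKO minus control, points) with its 95% interval (lines, limma) for the 5 measured members and the pathway genes reported here, by list, with dashed lines at -0.6 and 0.6. *Gli2* at 0.65 is the only point drawn beyond a dashed line, and its interval spans 0.39 to 0.92.

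The primary cilium, where Smo and Gli proteins meet, was described by 39 genes, of which all were measured. Limma called 1 (beside 13 of all genes, 0.086%), edgeR 1 (beside 20 of all genes) and DESeq2 1 (beside 56 of all genes, 0.371%). This gene was *B9d2*, which encodes a protein of the gate at the base of the cilium, at normalised counts of 149.7, 131, 179.6 and 117 in control and 62.8, 43.5, 39.9 and 37.7 in TGFβ1FKO replicates 1 to 4. It was lower in every TGFβ1FKO library, at a log2 fold change of -1.64 (limma, adjusted p = 0.00499). *B9d2* ends 443 bases before *Tgfb1* on the same strand of chromosome 7, and so lies upstream of the gene targeted for deletion. The part of this nearness in the *B9d2* values was not tested.

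Of the other ciliary genes, 3 had groups without overlap and 0 passed after adjustment. Over all 39 genes, 4 had no overlap (10.3%), beside 3.79% of all genes. At an unadjusted limma p under 0.05, 3 of 39 passed (7.69%), beside 7.46% of all genes. *Ift57*, of the intraflagellar transport machinery, was between 253 and 280.5 in control and between 292 and 307 in TGFβ1FKO libraries. *Dync2li1*, a light intermediate chain of the motor that brings cargo back from the tip, was between 234 and 237 in control and between 204 and 223 in TGFβ1FKO libraries. *Bbs1*, of the complex that carries membrane proteins of the cilium, was between 81.7 and 97.8 in control and between 55.7 and 74.7 in TGFβ1FKO libraries. The differences were small, with log2 fold changes of 0.17, -0.15 and -0.39. The most abundant genes of the 3 ciliary lists, *Wdr35*, *Cc2d2a* and *Cep164*, had log2 fold changes of 0.00, -0.14 and 0.03, and the median over all 39 was 0.02.

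TGFβ acting through Smad3 is known to induce *GLI2* in fibroblasts, so the genes of that input were read beside *Gli2*. Of 11 genes, limma called 1, *Tgfb1*, the gene targeted for deletion, beside 13 of all genes (0.086%). *Smad3* had a log2 fold change of 0.12 (95% interval -0.07 to 0.30) and *Tgfbr2*, the most abundant of the list, 0.00 (95% interval -0.19 to 0.20). The 4 libraries with low *Tgfb1* were those with the higher *Gli2* values.

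Markers of Schwann cells moved with the groups. Of 10 markers, 9 were measured, and all 9 had lower means in TGFβ1FKO libraries with an unadjusted p under 0.05 (beside 7.46% of all genes), at a median log2 fold change of -2.27 (beside 0.00 for all genes). Limma called 3 of them (beside 0.086% of all genes), with *Sox10* and *Foxd3* among these, named after their values were seen. Summed normalised counts of the 9 were 2517, 2233, 2444 and 1727 in control and 1814, 940.3, 900.1 and 1274 in TGFβ1FKO replicates 1 to 4, with TGFβ1FKO replicate 1 above control replicate 4. The most abundant was *Ngfr*, at 1446 in control and 971 in TGFβ1FKO libraries. Without *Ngfr*, the sums were 754, 849, 1058 and 476 in control and 302, 212, 278 and 251.5 in TGFβ1FKO replicates 1 to 4. In bulk RNA, fewer cells of a type and less RNA per cell cannot be told apart, and the part of these cells in the *Gli2* values was not tested.

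**Figure D4:**
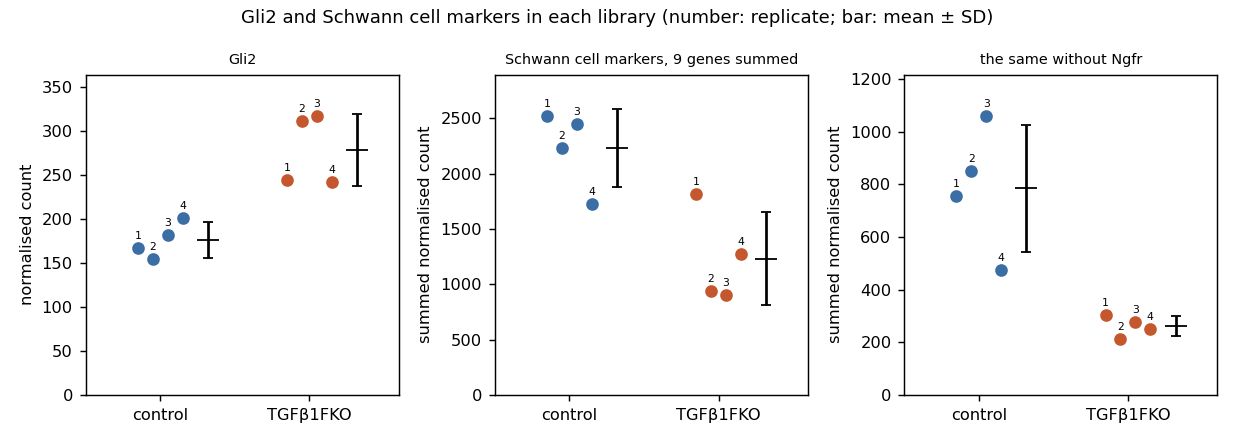
Normalised counts of *Gli2* (left), the sum over 9 Schwann cell markers (middle) and that sum without *Ngfr* (right) in each library, with the replicate number above each point and mean ± SD (n = 4) beside the points. *Gli2* is higher in every TGFβ1FKO library, and the sum without *Ngfr* is lower in every one, at 212 to 302 against 476 to 1058.

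Markers of 5 other cell types were summed as well, in full and without each list's most abundant gene. Of 9 keratinocyte markers 4 were measured, with *Krt10* the most abundant at a mean normalised count of 69.3, and *Krt5*, *Krt14*, *Krt15*, *Krt17* and *Epcam* were not analysed here. Their sums were 113, 116, 116 and 152 in control and 157, 173, 148 and 157 in TGFβ1FKO replicates 1 to 4, so that control replicate 4 reached into the TGFβ1FKO range. Without *Krt10*, the other 3 summed to 45.6, 55.2, 52.1 and 66.2 in control and 84.1, 97.3, 90.5 and 86.4 in TGFβ1FKO replicates 1 to 4. This sum was higher in every TGFβ1FKO library, by 1.64-fold on average. Of the 4 measured markers, 2 had a log2 fold change above 0 and 2 below, with *Krt10* at -0.0007. The 8 endothelial markers, led by *Tek*, summed to 681, 829.8, 779.5 and 538 in control and 521, 560.3, 522 and 527 in TGFβ1FKO replicates 1 to 4, and all 8 had a log2 fold change below 0. The mean sums of the 6 measured pericyte markers, led by *Notch3*, were 1650.1 and 1505, those of 4 macrophage markers, led by *Lyz2*, 596 and 524, and those of 3 melanocyte markers, led by *Mitf*, 259 and 264 in control and TGFβ1FKO libraries. For these 4 lists, groups overlapped both in the full sums and in the sums without the most abundant gene. Not analysed here were *Kcnj8*, *Ptprc*, *Adgre1*, *Itgam*, *C1qa*, *Dct* and *Tyr*. Of the 25 genes measured on these 5 lists, limma, edgeR and DESeq2 each called 0, beside 13, 20 and 56 of all genes. An unadjusted limma p under 0.05 was found for 5 of the 25 (20.0%, beside 7.46% of all genes). These 5, named after their values were seen, were *Dsp* and *Trp63* with higher and *Pecam1*, *Cldn5* and *Cspg4* with lower means in TGFβ1FKO libraries. The groups of *Dsp* did not overlap. The part of these markers in the *Gli2* values was not tested.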

How the data were processed

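Per the submitters' processing notes, reads were demultiplexed with CASAVA 1.8, aligned to GRCm38/mm10 with HISAT2 2.0.5, counted with featureCounts 1.5.0-p3 and normalised with DESeq2 1.42.0 in R 4.3.2. The deposited signal values are gene counts divided by size factors, to which the authors' table adds 0.5. The 0.5 was subtracted, and whole reads were recovered from the steps between low values (100% of values whole within 0.1 in every library). Columns with the authors' fold changes, test statistics and p-values were not used.

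Log2(normalised count + 1) was fitted over 15111 genes with limma 3.58.1 (mean-variance trend, no covariates, R 4.3.3), so fold changes of low genes are understated. Calls need an adjusted p under 0.05 with a change beyond 0.6 on the log2 scale. On recovered reads, edgeR 4.0.16 (quasi-likelihood) called 20 genes with the deposited size factors and 22 with TMM, and DESeq2 1.42.0 called 56. Methods were tested on simulated data. Coordinates and lengths are from GENCODE M21. Libraries of a group differed beyond sampling noise (lowest chi-square per degree of freedom 4.89). Members and lists were chosen with earlier results of these data known. Genes were named by rule, with exceptions: *Tgfb1*, the 6 members, listed pathway genes, listed target, ciliary and TGFβ genes with an unadjusted p under 0.05 or separate groups, each list's most abundant gene, and the 3 genes most like each member. The exceptions were *Smad3*, *Gm6556*, the flagged marker *Erbb3*, markers named after their values were seen, and some listed genes not analysed. Some listed genes enter the counts, sums and medians of their lists but are not reported here by name.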

Additional observations from a re-analysis of the deposited data

Results flagged for a closer look

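Values were compared within each group of 4 libraries for 27 genes (54 groups), by the gap of the highest or lowest library to its neighbour divided by the range. Beyond Dixon's 95% critical value, which chance passes in about 1 in 20 groups, there was 1 value. The Schwann cell marker *Erbb3* had a normalised count of 27.4 in TGFβ1FKO replicate 1, against 11.1 to 12.5 in the other TGFβ1FKO libraries (ratio 0.916). For the 5 hedgehog genes, 0 such values were found.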

How the results depend on the processing

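The log2 fold changes of *Gli3*, *Ptch1*, *Smo* and *Sufu* kept their sign and missed the threshold under all 17 alternatives, and pathway genes (0 called), ciliary genes (1 called) and correlated pairs (0) gave the same counts under all of theirs. The sizes of these 4 changes moved with single libraries. Left out in turn, libraries gave 0.05 (without control replicate 3) to 0.23 (without control replicate 4) for *Gli3*, 0.02 (without control replicate 4) to 0.19 (without TGFβ1FKO replicate 2) for *Ptch1*, 0.01 (without control replicate 1) to 0.13 (without control replicate 4) for *Smo*, and 0.02 (without TGFβ1FKO replicate 3) to 0.11 (without TGFβ1FKO replicate 1) for *Sufu*. *Gli1* gave no value. *Gli2* was called with DESeq2's test against no change (log2 fold change 0.66) and without control replicate 4, and over the 8 libraries left out in turn it ran from 0.59 to 0.72. The count of hedgehog genes called was 0 by limma and 1 with that DESeq2 test, 1 at an adjusted p under 0.1, and 0 to 1 over the libraries left out. The 1 came without control replicate 4.

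Of all genes, 13 were called by limma, 20 by edgeR with the deposited size factors, 22 by edgeR with TMM, 56 by DESeq2's test against no change, 15 by its test against a change of 0.6, 25 at an adjusted p under 0.1 and 3 among genes with at least 10 reads in every library. Leaving out 1 library gave 5 to 32 calls, the most without control replicate 4. The cause was not tested.

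Replicate numbers did not pair the libraries: deviations from the group means of same-numbered libraries correlated at -0.13 to 0.16, and 2 of 8 libraries correlated best with their own number. With the numbers as a replicate block, 31 genes were called, 0 of them hedgehog genes, and *Gli2* had an adjusted p of 0.0933. Depth limits *Ptch1*, *Scube2* and *Scube3* most.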
